A study of Homo sapiens with 4 samples.

Results

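The genes described here mark where a carcinoma cell stands between an epithelial and a mesenchymal state. They are CDH1 (E-cadherin), CDH2 (N-cadherin), CDH3 (P-cadherin), CTNNB1 (β-catenin), EPCAM, VIM (vimentin), ZEB1, SNAI2 (SLUG), TGFBI and CD44. They were chosen by name, and their poly(A) site clusters (PACs) were taken from the 4 tables by position. A PAC belonged to a gene when its dominant site, the single position with most tags, lay inside the span of that gene on the same strand in GENCODE 44. By this rule 9 of the 10 genes held 12 of the 17627 PACs of the series, of which 16206 lay in the span of some gene. VIM held none, because the dominant site of its only PAC lay 1 nt past the annotated end of the gene. That PAC overlaps VIM, so its values come from a fit in which PACs that overlap a span were added to the gene, and VIM is left out of every count over the 9 genes.

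The assay was PAS-seq, a 3′ end sequencing of polyadenylated RNA, on KYSE30 and TE-1 cells, which are established lines of human oesophageal squamous cell carcinoma (ESCC). Each line had 1 L-lactate library, from cells kept at 20 mM for 24 h, and 1 control library whose treatment is labelled PBS. No label names a genetic change in any of the 4 libraries. A condition within a line thus rests on a single library. The libraries held 7174991 (KYSE30, L-lactate), 7425554 (KYSE30, control), 8468958 (TE-1, L-lactate) and 10393799 (TE-1, control) tags, worked out from the steps between values. Levels are in RPM, tags per 1000000 tags of the library. The lowest listed level was 1.06 to 1.12 RPM over all PACs and 3.07 to 3.10 RPM over PACs of a single base, which the study left out at low levels. "Not listed" is used below for such cases and does not mean that no RNA was there.

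The cell line labels of both control libraries carry another number (KYSE32 and TE-3) than their titles, which give KYSE30 and TE-1. Across 11727 genes the rank correlation of RPM was 0.989 between the KYSE30 libraries, 0.990 between the TE-1 libraries and 0.742 to 0.749 between libraries of different lines. Genes are not independent replicates, so these values only describe the libraries. Differences between the lines are also given below for the L-lactate libraries alone, whose labels do not conflict. Every comparison of L-lactate with control takes the line of the control from its title.

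Epithelial cells are held together by adherens junctions, in which E-cadherin or P-cadherin binds the same molecule on the neighbouring cell and is linked to actin through β-catenin and α-catenin. In the epithelial-mesenchymal transition (EMT), factors such as ZEB1 and SLUG repress E-cadherin and other junction genes, while vimentin filaments and N-cadherin become more abundant. Carcinoma lines often hold a stable position along this axis, and some carry genes of both states. CD44 is a receptor for hyaluronan that is spliced differently in epithelial and mesenchymal cells. The 3′ end of an mRNA is set by a hexamer upstream of the cleavage site, which the cleavage and polyadenylation factor reads, and by UGUA elements, which are bound by NUDT21 of cleavage factor I.

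The sequences below are the 30 nt that end at the dominant site, read in the direction of the transcript from GRCh38. A level is summed over the whole PAC and not measured at this site alone. The dominant site held from 43.8% (CDH2, KYSE30 control) to 100% (SNAI2 and the second CDH3 PAC) of the tags of a PAC. The PACs of EPCAM, VIM and TGFBI start at 47386910, 17237306 and 136063666, upstream of the windows printed. Capitals mark the poly(A) signal, taken as AATAAA where present, then as ATTAAA, and then as AGTAAA or as TATAAA or as CATAAA or as GATAAA or as AATATA or as AATACA or as AATAGA or as AAAAAG or as ACTAAA, in the 50 nt before the site on the transcript strand.
CDH1, chr16:68835506-68835535, plus strand: ttttataaattttATTAAAcaattttgtta
CDH2, chr18:27950971-27951000, minus strand: cagcgttctgAATAAAatgctaattttgga
CDH3 first PAC, chr16:68699008-68699037, plus strand: agaacttttttATTAAAgaaacttttccca
CDH3 second PAC, chr16:68700263-68700292, plus strand: tgatgttgaAATAAAcatttccttccatga
CTNNB1, chr3:41240414-41240443, plus strand: atggttcagaATTAAActtttaattcattc
EPCAM, chr2:47386990-47387019, plus strand: tgagctatgaAATAAAacattttaaactga
VIM, chr10:17237565-17237594, plus strand: tctgcttcAATAAAtctttggaaaaactct
ZEB1, chr10:31529172-31529201, plus strand: tctcacAATAAAatgcatcaacaagcctga
TGFBI, chr5:136063789-136063818, plus strand: tgtttgtaatAATAAAaccaaagaaacata
CD44 first PAC, chr11:35229440-35229469, plus strand: tcttttttagCATAAAattttctactcttt
CD44 middle PAC, chr11:35229998-35230027, plus strand: tAATAAAtatctgtacttcttcgatcttca
CD44 distal PAC, chr11:35232367-35232396, plus strand: ttaaaaggctaacATTAAAagactaaagga

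All 12 PACs taken by the rule lay in the 3′ UTR of the last exon of the MANE transcript, and none lay in the span of a second gene on the same strand. The sites of CDH1, CDH2, CTNNB1, EPCAM, TGFBI and the distal CD44 PAC were within 6 nt of the annotated transcript end. Relative to that end, the ZEB1 site lay at −603 nt and the SNAI2 site at −173 nt. Of the 13 PACs, VIM included, 8 had AATAAA, 4 had ATTAAA and no AATAAA, and 1 had another variant only. Over 17621 PACs of the series the shares were 66.4% with AATAAA, 16.7% with ATTAAA and no AATAAA, 11.5% with another variant only and 5.46% with none of these hexamers. The first CD44 PAC, with CATAAA, was the one with neither main hexamer. The letters TGTA stood in the 100 nt before 8 of the 13 sites, against 57.0% of all PACs, and they were missing in these windows of VIM, ZEB1, SNAI2, the second CDH3 PAC and the first CD44 PAC. None of the 13 sites was followed by 12 or more A in 20 nt, which 0.970% of all PACs were and which can mark priming inside an RNA. These matches describe letters only and are not shown to be used.

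KYSE30 cells carried the epithelial adhesion genes and TE-1 cells carried vimentin, N-cadherin and ZEB1. The genes for E-cadherin, P-cadherin and EpCAM were each at 204 RPM or more in both KYSE30 libraries and at 36.4 RPM or less in both TE-1 libraries. VIM was at 982 RPM or more in TE-1 and below 7 RPM in KYSE30. The gene for β-catenin and CD44 lay at like levels in the lines, and SNAI2 and TGFBI, which are often counted as mesenchymal genes, were higher in KYSE30.

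**Figure D1:**
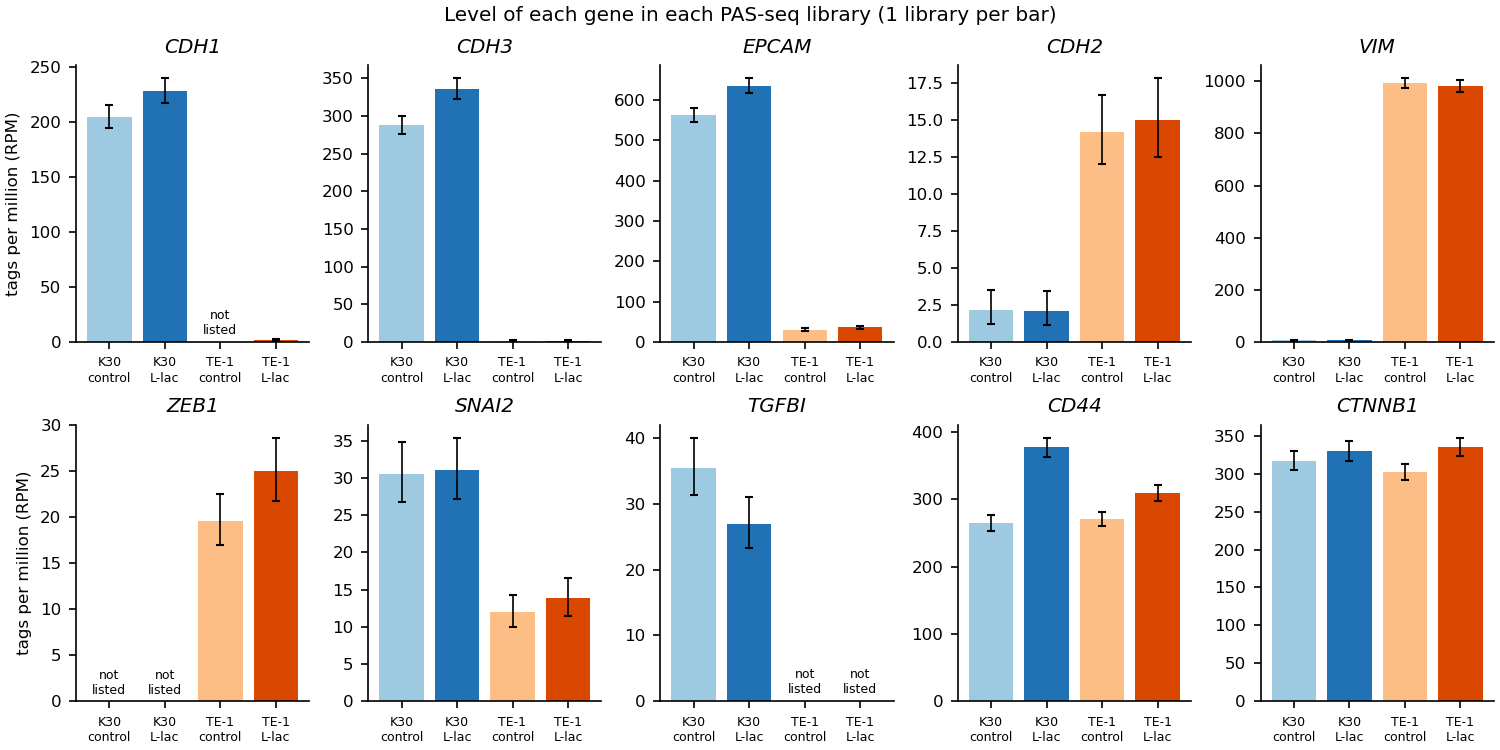
Level of each gene in RPM (vertical axis, from 0 and scaled for each gene) in the 4 libraries, KYSE30 (K30) control and L-lactate and TE-1 control and L-lactate; a bar is 1 library and its error bar the exact Poisson 95% counting interval. The 2 KYSE30 bars are far above the TE-1 bars for CDH1, CDH3 and EPCAM and far below them for VIM, while the 4 bars of CTNNB1 lie between 302 and 335 RPM.

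CDH1, the gene for E-cadherin, was at 228 RPM in KYSE30 with L-lactate and 204 RPM in the KYSE30 control. In TE-1 it was at 1.30 RPM with L-lactate, which is 11 tags, and missing from the control table. The lines did not overlap, and TE-1 was lower by 7.16 ± 0.27 on the log2(RPM + 1) scale (SE, n = 2 libraries a line, limma adjusted p = 3.48e-05). No fold is given, since a TE-1 library does not list the gene. The difference was −6.64 between the L-lactate libraries alone.

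CDH3, the gene for P-cadherin, which is found in basal layers of stratified epithelia, was at 336 RPM with L-lactate and 288 RPM without in KYSE30. It was at 1.54 and 1.25 RPM in TE-1, or 13 tags in each. The mean RPM was 224-fold higher in KYSE30, and the log2(RPM + 1) difference was −7.03 ± 0.11 (limma adjusted p = 1.16e-05). The L-lactate libraries alone gave −7.05. Of all genes tested, 0.435% differed by as much between the lines, and 0.375% by as much as CDH1.

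EPCAM encodes a surface glycoprotein of simple epithelia and many carcinomas that mediates adhesion between cells. Its level was 635 RPM with L-lactate and 563 RPM without in KYSE30, and 36.4 and 30.7 RPM in TE-1. EPCAM thus stayed well above the listing limit in TE-1, unlike CDH1 and CDH3. KYSE30 was 17.9-fold higher by mean RPM, and the log2(RPM + 1) difference was −4.12 ± 0.07 (limma adjusted p = 1.16e-05), or −4.09 in the L-lactate libraries alone.

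VIM, which encodes the intermediate filament protein of mesenchymal cells, was at 982 RPM in TE-1 with L-lactate and 991 RPM in the TE-1 control. In KYSE30 it was at 6.69 and 5.66 RPM, which are 48 and 42 tags. TE-1 was 160-fold higher by mean RPM, with a log2(RPM + 1) difference of 7.11 ± 0.09 (limma adjusted p = 5.16e-06 in the fit with overlapping PACs) and 6.997 in the L-lactate libraries alone. In that fit 0.401% of genes differed by as much.

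CDH2, the gene for N-cadherin, was at 14.996 RPM in TE-1 with L-lactate and 14.2 RPM without, and at 2.09 and 2.16 RPM in KYSE30. The KYSE30 values rest on 15 and 16 tags. TE-1 was 6.89-fold higher by mean RPM, and the log2(RPM + 1) difference was 2.32 ± 0.19 (limma adjusted p = 0.000295), or 2.37 in the L-lactate libraries alone. A difference of this size is common between these lines, as 16.1% of all genes reached it.

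The transcription factors that repress E-cadherin did not share a direction. ZEB1, a zinc finger repressor of CDH1 and of many other epithelial genes, was at 25.03 RPM with L-lactate and 19.6 RPM without in TE-1 and was not listed in either KYSE30 library. The log2(RPM + 1) difference was 4.53 ± 0.22 (limma adjusted p = 7.09e-05), or 4.70 in the L-lactate libraries alone, and no fold is given. SNAI2, whose protein SLUG represses CDH1 and is also active in basal epithelial cells, was at 31.1 and 30.6 RPM in KYSE30 (L-lactate, then control) and at 13.8 and 12.03 RPM in TE-1. KYSE30 was thus 2.39-fold higher by mean RPM, with a log2(RPM + 1) difference of −1.20 ± 0.13 (limma adjusted p = 0.000735) and −1.11 in the L-lactate libraries alone. With line as the only term and either KYSE30 library left out, SNAI2 missed the threshold (limma adjusted p = 0.0508 without the L-lactate library and 0.0510 without the control). Of all genes, 34.1% differed by as much as SNAI2 and 3.09% by as much as ZEB1.

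TGFBI, a matrix protein induced by TGF-β that binds collagens and integrins, was at 27.0 RPM with L-lactate and 35.6 RPM without in KYSE30 and was not listed in TE-1. The log2(RPM + 1) difference was −5.00 ± 0.22 (limma adjusted p = 5.07e-05), or −4.81 in the L-lactate libraries alone, and 2.30% of genes differed by as much.

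CTNNB1 was at 329 and 317 RPM in KYSE30 (L-lactate, then control) and at 335 and 302 RPM in TE-1. Its protein links cadherins to the cytoskeleton and is also the effector of canonical Wnt signalling. The lines overlapped, and the log2(RPM + 1) difference was −0.02 ± 0.06 (limma adjusted p = 0.765). CD44 was at 377 and 264 RPM in KYSE30 and at 309 and 270 RPM in TE-1, so its lines overlapped too. Its difference was −0.13 ± 0.09 (limma adjusted p = 0.259), from 0.03 between the control libraries to −0.29 between the L-lactate libraries.

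Of the 9 genes in the fit, 7 passed the test between the lines, 5 higher in KYSE30 and 2 higher in TE-1. Over the 11727 genes tested 70.8% passed, 36.5% higher in KYSE30 and 34.3% higher in TE-1, so the number passing is near that of any genes in these lines. The size of the differences stood further from that of other genes. At least 4-fold differences on the log2(RPM + 1) scale were seen in 6 of the 9 genes and in 20.2% of all genes. Among these 6, CDH1, ZEB1 and TGFBI were each unlisted in at least 1 library and entered as 0 there. The size of their differences thus depends on the pseudocount. The median absolute difference on this scale was 4.12 over the 9 genes and 0.74 over all. The genes were chosen with such results in view, so this contrast is a description. The error of the fit is the unequal response of the lines to L-lactate, with 1 residual degree of freedom a gene and a variance moderated over all genes. These are bulk libraries, in which fewer cells of a kind and less RNA per cell cannot be told apart.

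**Figure D2:**
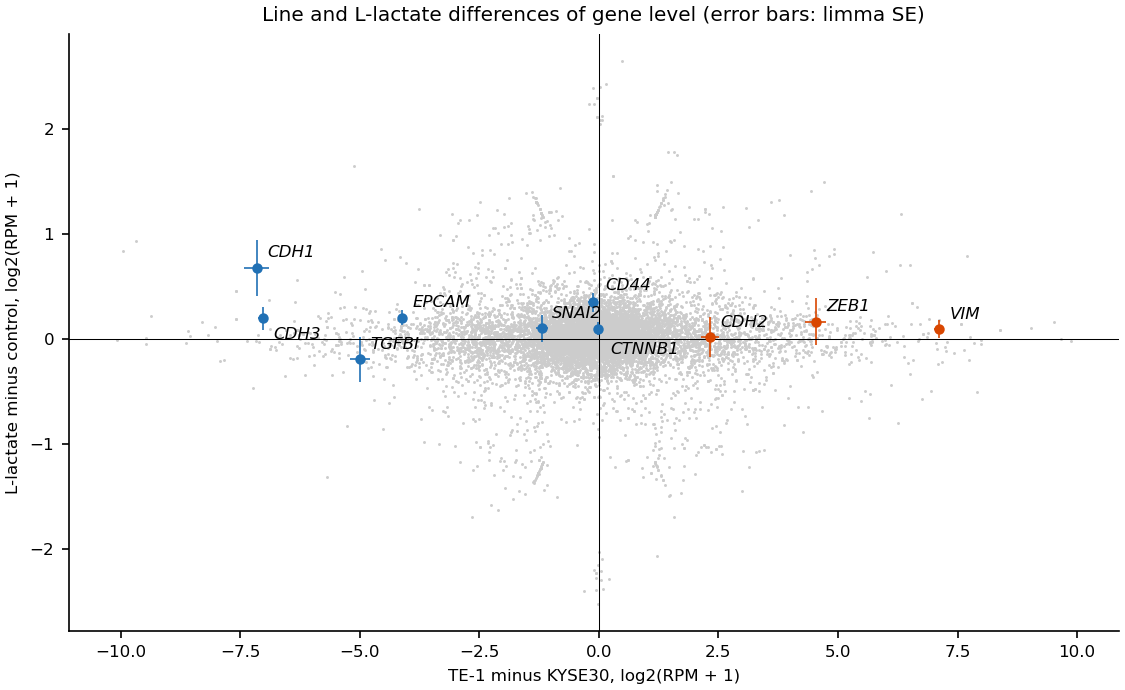
Difference between the lines (TE-1 minus KYSE30, horizontal axis) and difference with L-lactate (L-lactate minus control, vertical axis), both in log2(RPM + 1), for all genes tested (grey points) and the 10 genes with limma standard errors (blue, lower in TE-1; orange, higher in TE-1; VIM from the fit with overlapping PACs). The 10 genes spread from −7.16 to 7.11 along the horizontal axis and from −0.19 to 0.68 along the vertical axis.

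With L-lactate, the genes far apart between the lines stayed far apart, and CD44 had the largest fold within a line among ratios of 2 libraries that both list the gene. CD44 was at 377 RPM with L-lactate against 264 RPM without in KYSE30, a log2 ratio of 0.51 with an exact 95% counting interval of 0.43 to 0.60. In TE-1 it was at 309 against 270 RPM, a log2 ratio of 0.19 (0.11 to 0.27). These are 1.43-fold and 1.14-fold ratios of single libraries, so their intervals cover counting error only and not the spread between cultures. A difference of the response between the lines could not be tested, since it would leave no residual degree of freedom.

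Across both lines, 0 of the 9 genes passed the limma test for L-lactate at an adjusted p of 0.05, and neither did any other gene (0.0% of 11727). At an unadjusted p under 0.05, 7.27% of all genes and 3 of the 9 passed. These were CD44 (0.35 ± 0.09 on the log2 scale, unadjusted p = 0.0117, limma), EPCAM (0.21 ± 0.07, unadjusted p = 0.0279, limma) and CDH1 (0.68 ± 0.27, unadjusted p = 0.0497, limma), all with a limma adjusted p of 0.644 and higher with L-lactate in 2 of 2 lines. CD44 passed in a single alternative, in which PACs not listed in all 4 libraries were left out (0.35 ± 0.07, limma adjusted p = 0.000689). There 174 of 9521 genes passed and limma gave all genes 1 common variance trend. In the other 9 alternatives the limma adjusted p of CD44 lay between 0.196 and 0.778. The CDH1 value depends on the TE-1 control, in which the gene was not listed.

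**Figure D3:**
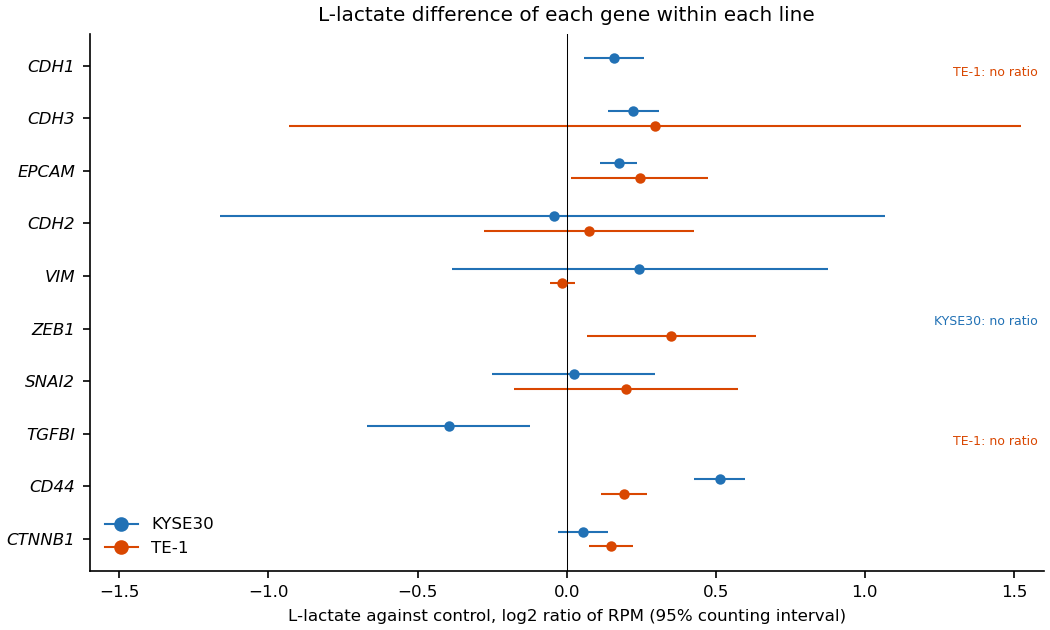
Log2 ratio of RPM with L-lactate against control (horizontal axis) for each gene (vertical axis) in KYSE30 (blue) and TE-1 (orange), with exact 95% counting intervals; no ratio is drawn where a library does not list the gene. CD44 lies at 0.51 in KYSE30 and 0.19 in TE-1, TGFBI lies at −0.39 in KYSE30, and the VIM interval in TE-1 is narrow and includes 0.

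Of the adhesion genes, CDH1 had the largest fitted difference with L-lactate of the 10 genes (0.68), which takes in a TE-1 difference of 1.20 on the log2(RPM + 1) scale between 11 tags and no listing. In KYSE30, log2 ratios were 0.16 for CDH1 (0.06 to 0.26), 0.22 for CDH3 (0.14 to 0.31) and 0.17 for EPCAM (0.11 to 0.24). In TE-1, EPCAM had a ratio of 0.24 (0.01 to 0.48), and CDH3, with 13 tags a library, one of 0.30 (−0.93 to 1.52). Over all genes, the median absolute fitted difference with L-lactate was 0.11 on the log2(RPM + 1) scale. That median is taken over both lines, so it can be set beside the fitted 0.68 but not directly beside the ratios within a line.

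Of the mesenchymal genes in TE-1, VIM had a log2 ratio of −0.01 (−0.06 to 0.03), CDH2 one of 0.07 (−0.28 to 0.43) and ZEB1 one of 0.35 (0.07 to 0.64). ZEB1 rests on 212 tags with L-lactate and 204 without, at the deeper control library. In KYSE30, TGFBI had a log2 ratio of −0.39 (−0.67 to −0.12), while SNAI2 had one of 0.02 (−0.25 to 0.30). CTNNB1 had ratios of 0.06 (−0.03 to 0.14) in KYSE30 and 0.15 (0.07 to 0.22) in TE-1. On the log2(RPM + 1) scale, 0 of the 9 genes were at least 1.5-fold apart in KYSE30, where 6.62% of all genes were. In TE-1 1 of the 9 was, CDH1, with its unlisted control, and 6.63% of all genes were.

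CD44 was the member with several PACs in regular use, all in the last exon. Their dominant sites lay 139, 697 and 3066 nt into a 3′ UTR of 3072 nt, so use of the first or middle PAC leaves out most of that UTR. The distal PAC took over 48% of CD44 tags in every library and the first PAC under 9%. The distal share was lower with L-lactate in both lines and was lowest in TE-1 with L-lactate, but neither the line nor the L-lactate difference passed the test.

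In KYSE30 the distal share was 57.4% in the control (Wilson 95% interval 55.2 to 59.6) and 55.3% with L-lactate (53.4 to 57.1). In TE-1 it was 55.3% in the control (53.4 to 57.1) and 48.6% with L-lactate (46.7 to 50.5). The TE-1 L-lactate library was thus below the other 3, whose intervals overlapped. The middle PAC took 37.6% and 35.9% in KYSE30 (L-lactate, then control) and 42.8% and 36.6% in TE-1, and the first PAC took 7.10%, 6.63%, 8.61% and 8.12% in the same order. The limma fit on shares gave −4.44 ± 1.95 percentage points for TE-1 minus KYSE30 (adjusted p = 0.253) and −4.42 ± 1.95 for L-lactate minus control (adjusted p = 0.599). Among 3304 genes with 2 or more PACs, 7.11% passed between the lines and 0.0% with L-lactate. Of these genes, 55.6% had a line difference and 30.3% an L-lactate difference as large as that of CD44.

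By level, all 3 CD44 PACs were higher with L-lactate in KYSE30, by 1.53-fold at the first, 1.49-fold at the middle and 1.37-fold at the distal PAC. The counting intervals of these 3 log2 ratios overlapped. In TE-1 the first PAC was 1.21-fold and the middle PAC 1.33-fold higher, while the distal PAC was at 150.0 RPM with L-lactate and 149 RPM without, a log2 ratio of 0.01 (−0.10 to 0.11). The middle PAC of TE-1, at 132 RPM with L-lactate and 99.0 RPM without, had an interval of its log2 ratio, 0.29 to 0.54, that did not overlap that of the distal PAC.

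**Figure D4:**
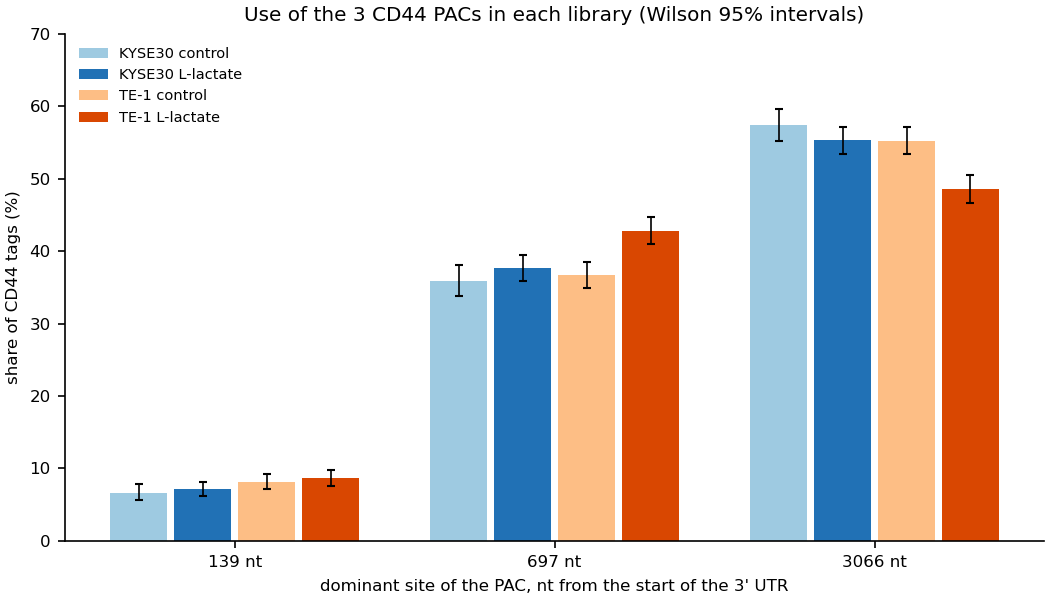
Share of CD44 tags (vertical axis, percent) at each of the 3 PACs (horizontal axis, position in nt from the start of the 3′ UTR) in the 4 libraries, with Wilson 95% intervals. The distal PAC holds 48.6% in TE-1 with L-lactate and 55.3% to 57.4% in the other libraries, and the middle PAC holds 42.8% there and 35.9% to 37.6% in the others.

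CDH3 had a second PAC, 1895 nt into the 3′ UTR against 640 nt for the first. It was listed in KYSE30 with L-lactate alone, with 23 of 2411 tags or 0.954% (Wilson 95% interval 0.637 to 1.43). This PAC is a single base at 3.21 RPM, and the lowest such PAC listed in that library was at 3.07 RPM, so a level just below this in the other libraries would not be listed. Each of the 12 PACs that were listed in 2 or more libraries could be compared in its dominant site, and in 11 the site was the same base in each library that lists the PAC.

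Other genes of the same state differed between the lines in number and size as follows, in lists that were drawn up with earlier results of these data known. Of 46 further epithelial genes, 39 were tested, the rest having no PAC in the span or a mean below 1 RPM, and 33 were higher in KYSE30 (36.5% of all genes were), 4 were higher in TE-1 (34.3%) and 2 did not pass. Their median log2(RPM + 1) difference was −2.78, against −0.03 over all genes. KRT19, a keratin of simple epithelia, was at 1574 and 1699 RPM in KYSE30 (L-lactate, then control) and at 2.95 RPM in TE-1 with L-lactate, but it was missing from the TE-1 control table. RAB25, a GTPase of epithelial vesicle traffic, was at 382 and 366 RPM in KYSE30 and not listed in TE-1. ESRP1, the splicing factor that sets epithelial exons, CD44 exons among them, was at 251 and 257 RPM in KYSE30 and not listed in TE-1. SPINT2, an inhibitor of serine proteases at the epithelial surface, was at 1494 and 1529 RPM in KYSE30 and at 9.92 and 4.62 RPM in TE-1. The 4 epithelial genes higher in TE-1 were MUC1 (4.14), DSP (0.61), ESRP2 (0.54) and CXADR (0.39), on the log2(RPM + 1) scale, and were named after their values were seen.

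Of 46 further mesenchymal genes, 33 were tested, with 21 higher in TE-1 (34.3% of all genes were), 9 higher in KYSE30 (36.5% of all genes were) and 3 not passing, and a median log2(RPM + 1) difference of 1.44. COL5A1, a fibrillar collagen, was at 224 and 234 RPM in the L-lactate and control libraries of TE-1 and not listed in KYSE30. DAB2, an endocytic adaptor, was at 209 and 172 RPM in TE-1 and not listed in KYSE30. TPM2, a tropomyosin of the actin cytoskeleton, was at 273 and 293 RPM in TE-1 and at 2.65 and 1.21 RPM in KYSE30. FN1, the gene for the matrix protein fibronectin, went the other way, with 74.1 and 128 RPM in KYSE30, 2.60 RPM in the TE-1 control and no listing in TE-1 with L-lactate. The mesenchymal list was thus more divided than the epithelial one, with 9 of its 33 tested genes on the KYSE30 side.

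**Figure D5:**
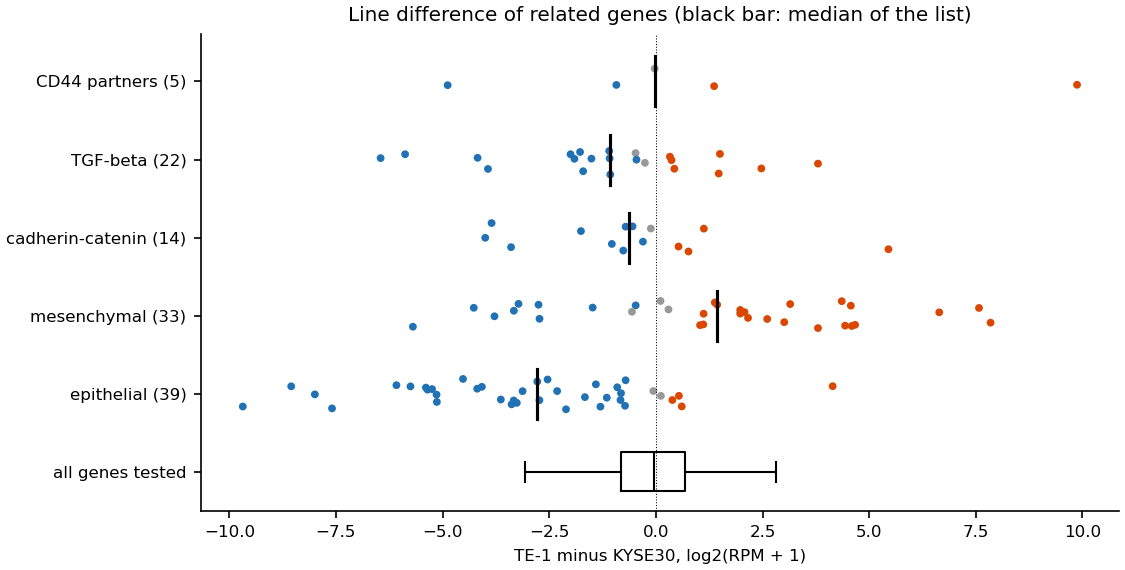
Difference between the lines (TE-1 minus KYSE30, log2(RPM + 1), horizontal axis) of the tested genes of each list (points; blue, passed and higher in KYSE30; orange, passed and higher in TE-1; grey, did not pass; black bars, medians; number tested in brackets), above a box with quartiles and 5th to 95th percentile whiskers of all genes. The median is −2.78 for the epithelial and 1.44 for the mesenchymal genes.

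Of the 14 tested genes of the cadherin and catenin complex and its neighbours, 9 were higher in KYSE30, 4 were higher in TE-1 and 1 did not pass, beside 36.5% and 34.3% of all genes in these directions. CDH13, a cadherin anchored by a lipid and lacking a cytoplasmic tail, was at 49.6 and 36.9 RPM in TE-1 and not listed in KYSE30. AFDN, which links nectins to actin, was at 128 and 139 RPM in KYSE30 and at 14.4 and 9.53 RPM in TE-1. PCDH1, a protocadherin, was at 13.4 and 16.8 RPM in KYSE30, and CDH5, the cadherin of endothelium, at 11.2 and 16.2 RPM, and neither was listed in TE-1.

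Of 22 genes of TGF-β signalling and response, 13 were higher in KYSE30 and 7 in TE-1, beside 36.5% and 34.3% of all genes, and 2 did not pass, with a median log2(RPM + 1) difference of −1.08. ITGB6, the integrin chain that activates latent TGF-β, was at 58.4 RPM with L-lactate and 57.4 RPM without in KYSE30 and was not listed in TE-1. LTBP2, of the family of proteins that bind latent TGF-β, was at 20.9 and 14.01 RPM in KYSE30 and was not listed in TE-1 either. ID1, a target of BMP and TGF-β signalling, was at 676 and 649 RPM in KYSE30 and at 45.9 and 39.0 RPM in TE-1.

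Of 5 tested partners of CD44, 2 were higher in each line and 1 did not pass, which is near the shares over all genes (36.5% and 34.3%). MSN, the gene for moesin, which ties the tail of CD44 to actin, was at 928 and 948 RPM in TE-1 and not listed in KYSE30, while EZR, for its relative ezrin, was at 226 and 249 RPM in KYSE30 and at 129 and 120 RPM in TE-1. SPP1, the gene for osteopontin, a ligand of CD44, was at 35.0 and 23.2 RPM in KYSE30 and not listed in TE-1. HAS2, a hyaluronan synthase, was at 1.12 and 1.35 RPM in KYSE30 and at 5.67 and 3.95 RPM in TE-1. Its level in KYSE30 with L-lactate was the lowest that this library lists, which is 8 tags. No gene of these 5 lists passed the limma test for L-lactate, and 0.0% of all genes did. An unadjusted p under 0.05 (limma) was seen in 1 of 39 epithelial, 1 of 33 mesenchymal and 1 of 14 cadherin genes. None of the TGF-β genes or CD44 partners had one, beside 7.27% of all genes.

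The labels name a squamous cell carcinoma, and of 6 markers of squamous epithelium 4 were listed, with summed levels of 357 to 374 RPM in KYSE30 and 392 to 474 RPM in TE-1. KRT5 and KRT14, the defining basal keratins, were listed in no library, TP63 and KRT6A were listed in KYSE30 alone and KRT17 in TE-1 alone. Most of the KYSE30 sum was SFN, at 301 and 313 RPM (L-lactate, then control). The TE-1 sum came from SFN (205 and 229 RPM) and KRT17 (187 and 245 RPM), so like sums do not mean like markers. Markers of simple epithelium, which are EPCAM and 3 keratins also counted in the epithelial list, summed to 4708 and 4710 RPM in KYSE30 and to 1174 and 1209 RPM in TE-1. Of 7 fibroblast markers, 3 (COL1A1, DCN and PDGFRB) were listed in TE-1, with sums of 15.4 and 16.6 RPM, and none in KYSE30. COL1A2, COL3A1, LUM and THY1 were listed nowhere. COL1A1, COL1A2, COL3A1 and THY1 also belong to the mesenchymal list, where COL1A1 counts among the genes higher in TE-1. Of the leukocyte markers PTPRC, CD3E and LYZ were listed nowhere and CD68 was at 3.48 to 15.2 RPM, and of the endothelial markers CDH5 alone was listed. The part of these markers in the differences of VIM, CDH2 and ZEB1 was not tested. In TE-1, VIM was at 982 to 991 RPM, CDH2 at 14.2 to 14.996 RPM and ZEB1 at 19.6 to 25.03 RPM. The fibroblast sums are taken over 3 genes, so they are not on a par with the level of a single gene.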

How the data were processed

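The 4 PAS-seq libraries were made from polyadenylated RNA with a stranded kit. According to the study's methods, the authors trimmed the reads, aligned them to GRCh38 (p14 in the submitters' processing notes) with HISAT2, called PACs with CAGEr and left out sites of low level. Each deposited table holds, for 1 library, the position, dominant site and level of each PAC. The deposited levels are headed TPM, but they are RPM, the tags of a PAC scaled to the total of the library with no correction for length, and 100% of them are whole tags within 0.1 tag at the totals given above. The lowest listed level was 8 to 11 tags, and PACs of a single base were listed from 3.07 RPM up, so values below about 1 RPM, or below about 3 RPM for such PACs, are unknown and entered the fits as 0.

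Tables were joined on the shared PAC number. PACs were placed by dominant site in GENCODE 44 spans, and a PAC in the spans of more than 1 gene (1388 PACs) counted for each. RPM were summed per gene. Genes with a mean RPM of 1 or more were fitted with limma 3.58.1 (R 4.3.3) on log2(RPM + 1), with line and treatment as additive terms, empirical Bayes with trend and Benjamini-Hochberg adjustment over all genes tested. A gene was called at an adjusted p of 0.05. For genes with 2 or more PACs and 5 RPM or more in every library, the percent of tags in the most distal PAC was fitted the same way without trend. Within a line, conditions are 1 library each, so ratios carry exact conditional binomial 95% intervals, levels exact Poisson and shares Wilson intervals. They cover counting error only, and PCR copies are not told apart. The p-values rest on the unequal response of the lines to L-lactate, with a variance moderated over all genes tested. They do not measure a spread between replicate cultures, and no label names separate cultures.

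Named genes are the 10 members and, per list, the 4 genes past the line test with the largest difference. A gene that the rule names in the TGF-β list is not reported here. Genes named outside this rule are said to be so or are cell type markers. The members and lists were chosen with earlier results of these data known. Scripts used Python 3.11.15 and SciPy 1.17.1 and were checked on simulated data. SNAI2 sequence is not printed.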

Additional observations from a re-analysis of the deposited data

How the results depend on the processing

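For the 7 of the 9 genes past the test, the line difference kept its direction under every setting run. Its log2 size ran from −9.62 to −5.30 for CDH1, −9.19 to −2.85 for TGFBI and 2.44 to 8.34 for ZEB1. It ran from −7.76 to −5.63 for CDH3 and from 1.46 to 2.74 for CDH2. For VIM, only the fit with overlapping PACs (7.11) and the control (7.22) or L-lactate libraries alone (6.997) were run. With all 4 libraries, 7 of 9 were called for the line in each setting except that with only PACs listed in all 4 libraries. There 4 of 6 were called, because CDH1, ZEB1 and TGFBI no longer had a PAC, beside 6790 of 9521 over all genes. That setting alone called a member for L-lactate (1, CD44). Over all genes, L-lactate calls went from 0 to 1 with a pseudocount of 5, 1 with a mean of at least 5 RPM, 174 with only PACs listed in all 4 libraries and 25 with limma voom on whole tags. Line calls on the distal share went from 235 to 0 with a minimum of 1 RPM, 407 with 20 RPM, 408 on the logit scale, 396 with only PACs listed in all 4 libraries and 0 with 3′ UTR PACs only. The cause of these shifts was not tested. The CD44 distal share differed between the lines by −2.19 percentage points in the control and −6.68 in the L-lactate libraries, and with L-lactate by −2.17 in KYSE30 and −6.67 in TE-1. The dominant PAC of CD44 did not change, while the RPM-weighted mean site moved by −54.1 nt in KYSE30 and −161 nt in TE-1. For CDH2, whose L-lactate difference was 0.02, rescaling by the median of ratios gave −0.00063. The voom fit and the fit with overlapping PACs were added after seeing the data. The planned quasi-likelihood count test was not run, and voom on whole tags stands in its place. With each library left out in turn and line as the only term, also added after seeing the data, 6 to 7 of the 9 genes and 4646 to 5118 of all genes, against 8308, were called for the line, with SNAI2 the one lost, without either KYSE30 library. There CTNNB1 ran from −0.095 to 0.052 and CD44 from −0.38 to 0.13, neither of them called. The L-lactate fit already compares within line, and it leaves no residual degree of freedom with 3 libraries. The labels carry no replicate numbers beyond that. Depth limits the genes not listed in a line (ZEB1, TGFBI), CDH1 in TE-1, with 11 tags in a single library, CDH3 in TE-1 and CDH2 in KYSE30, with 13 to 16 tags a library.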

Other observations

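Past the annotated end of CDH1, another PAC had its dominant site 1454 nt downstream at chr16:68836991, at 7.11 RPM with L-lactate and 5.66 RPM without in KYSE30, and it was not listed in TE-1. It was not counted for CDH1, and the lines stand in the same order there as at the CDH1 site. CDH2 was the member whose dominant site was not the same base in all libraries, and the other base was that of the KYSE30 control, which holds 16 CDH2 tags.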
